A study of Mus musculus with 24 samples.

Results

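The nuclear genes of oxidative phosphorylation were followed in liver RNA of diet-induced obese mice given the glucagon receptor agonist IUB288. They were taken as every row of the liver count table whose symbol begins with Nduf, Uqcr, Cox4 to Cox8 or Atp5, or is Sdha to Sdhd, with a mean of at least 1 CPM (counts scaled to the size of the library) over the 24 libraries and no pseudogene suffix. The rule found 38 genes of 22355 in the table: 12 of complex I, 1 complex I assembly factor, 2 of complex III, 13 of complex IV and 10 of complex V. Complexes were assigned by symbol, so that Ndufa4 and its paralogue Ndufa4l2 were counted in complex I. Another 10 matching rows were pseudogenes, and 5 lay under the CPM minimum. The table ended at Entrez number 50932 in text order, so complex II, most of complex III and many other subunits were not analysed here.

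The study compared 3 groups of 8 mice, each treated for 4 d, to ask how the agonist and its withdrawal act on liver RNA. The 2 IUB288 groups were collected 4 h and 22 h after their final dose, and the vehicle group at 22 h. There was no vehicle group at 4 h, so the time of collection cannot be told apart from the agonist in the 4 h comparison. IUB288 is known here by its code name only, and the strain, age and sex of the mice are not given in the sources used here. In the text 4 h and 22 h stand for the IUB288 groups.

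The respiratory chain sits in the inner mitochondrial membrane. Complexes I and II pass electrons from NADH and succinate to coenzyme Q, complex III passes them on to cytochrome c, and complex IV reduces oxygen. Complexes I, III and IV pump protons, and complex V, the ATP synthase, lets them back to make ATP. Most subunits are nuclear genes, and a core of the complexes other than complex II is made from mitochondrial DNA. In hepatocytes the chain takes up the electrons of fatty acid oxidation and supplies the ATP for gluconeogenesis and urea synthesis, both of which glucagon promotes. The coactivators PGC-1alpha (Ppargc1a) and PGC-1beta, with the factors NRF1, GABP and ERRalpha, are known to activate these nuclear genes.

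Libraries held 13.99 to 44.07 M counts. The 10 hepatocyte markers summed to between 65768 and 125580 CPM in the 23 livers tested. Vehicle replicate 1 was left out of all groups below, except where it is said to be kept, because markers of other tissues were high in it. Ucp1, the uncoupling protein of brown fat, was at 1383 CPM there and at most 0.575 CPM in the other libraries. White fat and skeletal muscle markers were high in it too, at sums of 3455 and 259 CPM against at most 212 and 4.18 CPM elsewhere. Another 3 libraries, vehicle replicates 2 and 7 and 4 h replicate 8, stood apart in the mitochondrially encoded COX2, at 2978 to 5125 CPM against 33.4 to 832 CPM in the others. These 3 stayed in the groups, and counts without them are given beside the results. CPM values were scaled by the trimmed mean of M values (TMM), and log2 fold changes come from limma-voom with Benjamini-Hochberg adjustment over 11614 genes. A gene is called where this adjusted p is under 0.05, and groups are given as the lowest, median and highest liver.

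Of the 38 genes 37 passed the filter on low counts. The exception, Cox8b, met the rule only through vehicle replicate 1 and is described with that library. The upstream sequences of 4 of the genes called at both times are printed first, as examples. They do not show how common a site is, and counts over all genes with a promoter entry follow them. The sequences are the 250 bases before the RefSeq start site on GRCm38.p6, 5′ to 3′ on the gene's own strand. The bases TGACG or their reverse complement are in capitals. Atp5b lies at chr10:128083057-128083306 (plus strand), Atp5o at chr16:91931631-91931880 (minus strand), Cox5b at chr1:36691237-36691486 (plus strand) and Cox7a2 at chr9:79759854-79760103 (minus strand), inside the span of its longer gene record.
Atp5b: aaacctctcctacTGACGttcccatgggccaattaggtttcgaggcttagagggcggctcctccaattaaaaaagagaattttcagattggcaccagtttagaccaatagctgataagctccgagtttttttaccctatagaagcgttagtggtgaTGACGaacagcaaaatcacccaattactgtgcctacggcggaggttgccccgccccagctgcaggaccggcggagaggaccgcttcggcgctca
Atp5o: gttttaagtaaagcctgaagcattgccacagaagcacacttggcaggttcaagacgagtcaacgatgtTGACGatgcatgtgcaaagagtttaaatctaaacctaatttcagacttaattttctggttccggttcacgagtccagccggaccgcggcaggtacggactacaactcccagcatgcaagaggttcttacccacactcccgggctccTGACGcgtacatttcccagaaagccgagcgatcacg
Cox5b: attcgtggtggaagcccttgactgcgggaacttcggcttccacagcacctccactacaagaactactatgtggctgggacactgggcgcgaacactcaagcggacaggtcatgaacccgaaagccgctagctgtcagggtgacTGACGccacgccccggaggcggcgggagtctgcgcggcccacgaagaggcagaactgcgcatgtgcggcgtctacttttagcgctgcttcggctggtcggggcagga
Cox7a2: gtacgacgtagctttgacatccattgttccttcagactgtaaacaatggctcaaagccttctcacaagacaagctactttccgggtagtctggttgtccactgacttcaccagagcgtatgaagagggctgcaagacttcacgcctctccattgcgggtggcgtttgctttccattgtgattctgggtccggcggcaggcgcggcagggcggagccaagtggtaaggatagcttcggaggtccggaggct
TGACG is the core of the cyclic AMP response element, the site of CREB, which protein kinase A activates after glucagon receptor signalling. It stood 237 and 94 bases upstream of the Atp5b start, 182 and 36 bases upstream of Atp5o and 107 bases upstream of Cox5b. In Cox7a2 these letters did not occur. The gene positions given below are RefSeq's spans on the same build.

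RefSeq promoter entries, reaching from 250 bases before to 50 bases after the start, were matched for 29 of the 38 genes, and each motif was searched on both strands. TGACG occurred in 10 of 29 (34.5%) against 21.0% of the promoters of 27025 genes. Of the 8 genes that were called higher at both times and had an entry, 4 held it. These were Atp5b, Atp5g1, Atp5o and Cox5b, and it was absent from Atp5pb, Cox5a, Cox7a2 and Ndufs4. The full element TGACGTCA, which contains the core, occurred in 0 of 29, against 1.88% of all promoters. Sites of factors known to drive respiratory genes were searched too. The NRF1 motif GCGCANGCG was in 7 of 29 (24.1% against 6.47%), the ETS motif CCGGAAG bound by GABP in 8 (27.6% against 9.12%) and the YY1 motif AAGATGGC in 4 (13.8% against 2.88%). The ERR motif TNAAGGTCA was in 1, Atp5g3 (3.45% against 1.26%). Among the 8 genes called higher at both times, the NRF1 motif was in 1, the YY1 motif in 2 and the ETS motif in 0. Of 3 motifs of other factors, the CCAAT box CCAAT was in 13 of 29 (44.8% against 37.9%), the Myc E-box CACGTG in 5 (17.2% against 7.24%) and the core of the hypoxia response element ACGTG in 9 (31.0% against 19.7%). These matches describe letters in a window, not bound sites.

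At 4 h, 13 of 37 genes were higher than in vehicle, 1 was lower and 23 were not called. The share called higher was 35.1%, against 22.3% of all genes tested, and the share called lower was 2.70% against 21.7%. At 22 h, 15 were higher, 0 lower and 22 not called, which is 40.5% higher against 17.8% of all genes, while 18.8% of all genes were lower. No gene of the 37 was lower at 22 h at an unadjusted p under 0.05 either (0 of 37), and limma-trend called 0. Fold changes above 0 were found for 32 of 37 genes at 4 h (86.5%, against 45.8% of all genes) and 35 of 37 at 22 h (94.6% against 49.3%). The changes were small: the median log2 fold change was 0.11 at 4 h and 0.14 at 22 h, against -0.05 and -0.01 over all genes. A change of over 1.5-fold was seen in 2 of the 37 genes at 4 h and 1 at 22 h. Of all genes, 27.8% and 24.1% changed by that much. Median standard errors were 0.068 for these genes at both times, against 0.158 and 0.156 over all genes. Smaller changes could therefore be called in these genes than in most others. Both comparisons used the same 7 vehicle livers, so their values are given side by side and not as independent results.

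**Figure D1:**
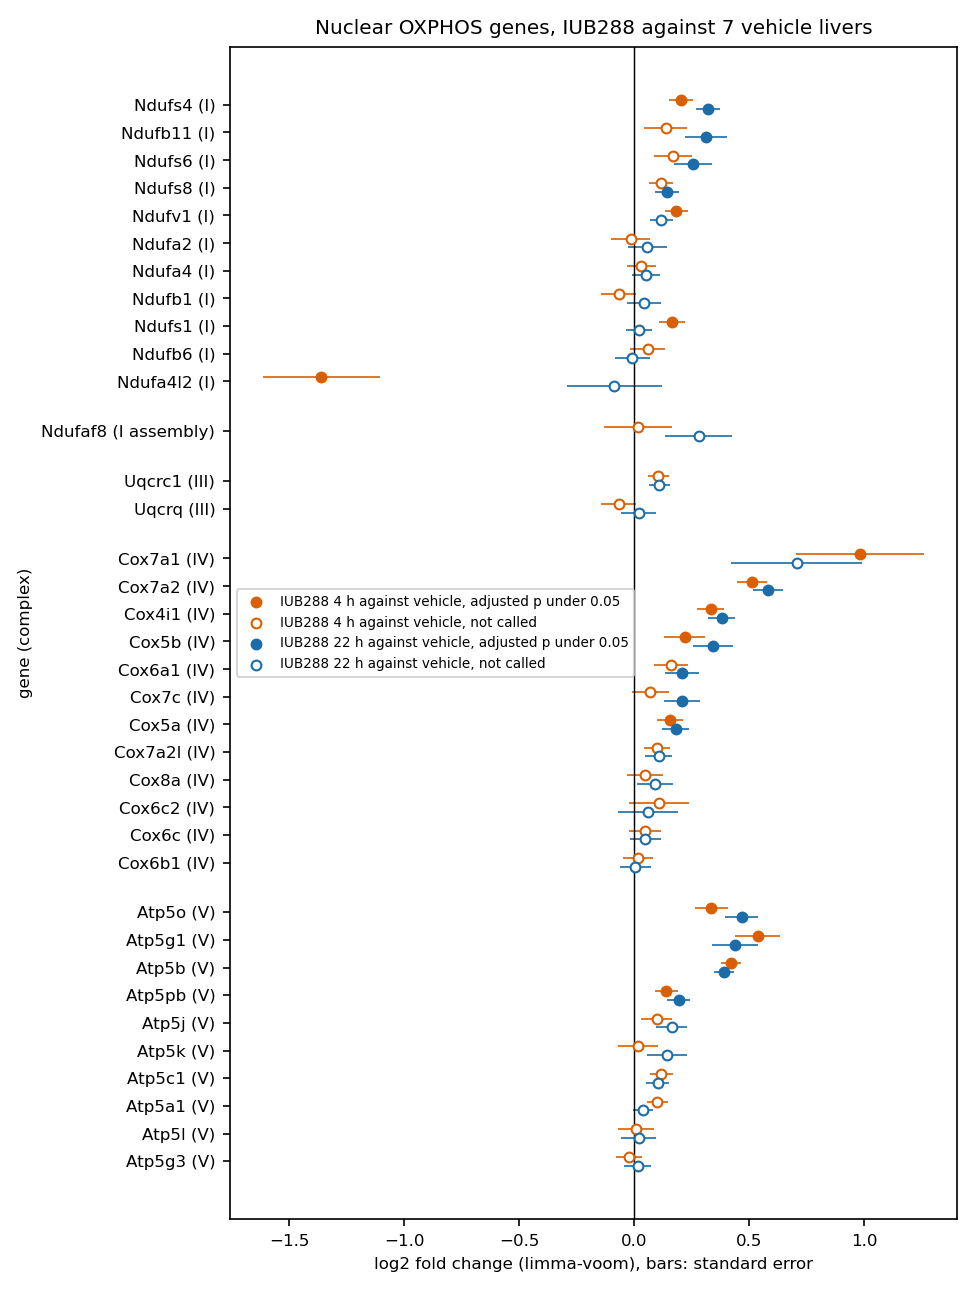
Log2 fold change of the genes described here, by complex, at 4 h (orange) and 22 h (blue) against the same 7 vehicle livers. Bars are standard errors of the limma-voom fit and filled points have an adjusted p under 0.05. Most points lie between 0 and 0.6, and Ndufa4l2 at 4 h stands far to the left.

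The 2 counts with vehicle did not change when the 3 livers with high COX2 were left out together, at 13 and 15 higher. They fell to 4 and 8 when vehicle replicate 1 was kept (10.8% and 21.6%), while the share of all genes called higher was 21.7% and 17.6%, so that at 4 h the share of these genes lay below that of all genes. Under upper quartile scaling 7 genes were higher at 4 h (18.9%, against 17.1% of all genes), and over all genes that scaling turned the 2587 higher and 2522 lower calls at 4 h into 1987 and 3223. Within replicates 1 to 4 alone, the first run of consecutive mouse numbers in the labels, 7 were higher at 4 h and 5 at 22 h, and within replicates 5 to 8, the second run, 7 and 12. Over all genes the shares called higher also fell, to 12.9% and 5.42% in the first run and 14.5% and 13.3% in the second.

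The core of complex I, which binds NADH and carries electrons to coenzyme Q, is described here by Ndufs1, Ndufs8 and Ndufv1. Ndufs1, the largest iron-sulfur subunit, lay at 194, 225 and 243 CPM in vehicle, 234, 245 and 276 CPM at 4 h and 195, 229 and 244 CPM at 22 h. All 8 livers at 4 h were above the vehicle mean, though 4 of them lay within the vehicle range, and at 22 h 4 of 8 were above it. It was higher at 4 h by 0.16 ± 0.06 on the log2 scale (± SE throughout, limma-voom adjusted p = 0.0203), at 22 h the difference was 0.02 ± 0.06 (adjusted p = 0.811), and from 4 h to 22 h it fell by 0.14 ± 0.05 (adjusted p = 0.0443). The gene was no longer called at 4 h when vehicle replicate 2 (0.13, adjusted p = 0.0538), vehicle replicate 7 (0.14, adjusted p = 0.0649) or all 3 livers with high COX2 (0.13, adjusted p = 0.11) were left out. Ndufv1, which holds the NADH site, rose at 4 h (0.18, adjusted p = 0.00356) and was not called at 22 h (0.12, adjusted p = 0.0609). Ndufs8, another iron-sulfur subunit, was called at 22 h (0.14, adjusted p = 0.0319) and not at 4 h (0.12, adjusted p = 0.0738). The 22 h call of Ndufs8 was kept in 17 of 23 fits that each left out 1 liver (highest adjusted p 0.0982), and the 4 h calls of Ndufs1 and Ndufv1 were lost under upper quartile scaling (0.08 and 0.10).

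The other complex I genes code for accessory subunits. Ndufs4 (chr13:114287795-114388094), which is needed for a stable complex and whose loss causes a Leigh-like disease, lay at 82.0, 87.5 and 98.9 CPM in vehicle, 94.9, 97.8 and 112 CPM at 4 h and 104, 107 and 123 CPM at 22 h. Its 22 h livers all lay above vehicle, while at 4 h 4 of 8 lay below the highest vehicle liver, replicate 2, and above the others. The log2 fold changes were 0.20 ± 0.05 (limma-voom adjusted p = 0.00271) and 0.32 ± 0.05 (adjusted p = 4.63e-05), and the first was lost under upper quartile scaling (0.12, adjusted p = 0.0811). Ndufb11, of the membrane arm, and Ndufs6, of the matrix arm, were called at 22 h (0.31, adjusted p = 0.0103 and 0.26, adjusted p = 0.0185) but not at 4 h (0.14, adjusted p = 0.241 and 0.17, adjusted p = 0.108). In replicates 1 to 4 alone Ndufs6 was at -0.05 at 22 h (adjusted p = 0.749), against 0.55 in replicates 5 to 8 alone (adjusted p = 0.00111). Ndufa2, Ndufa4, Ndufb1 and Ndufb6 were called in no comparison, nor was the assembly factor Ndufaf8.

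Ndufa4l2 was the gene that went the other way. It is a paralogue of Ndufa4 known as a target of hypoxia-inducible factor, and was at 1.68 CPM per kilobase of its main transcript in vehicle against 342 CPM per kilobase for Ndufa4, a subunit first assigned to complex I and now placed in complex IV. Ndufa4l2 (chr10:127509274-127517154) lay at 1.02, 1.61 and 2.23 CPM in vehicle, 0.330, 0.601 and 0.842 CPM at 4 h and 0.782, 1.37 and 2.49 CPM at 22 h. All livers at 4 h were below all vehicle livers, and the 22 h livers spread over the vehicle range. It fell by 1.36 ± 0.25 on the log2 scale at 4 h (limma-voom adjusted p = 0.000106), was at -0.09 ± 0.21 against vehicle at 22 h (adjusted p = 0.776), and rose by 1.27 ± 0.25 from 4 h to 22 h (adjusted p = 0.000272). In replicates 1 to 4 alone the 4 h value was -1.05 (adjusted p = 0.0621). Ndufa4 itself was not called (0.03 and 0.05, adjusted p = 0.711 and 0.556).

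Complex III was represented by Uqcrc1, a core protein, and Uqcrq, a small subunit, and neither was called. Uqcrc1 lay at 155, 164 and 177 CPM in vehicle, 159.7, 176 and 202 CPM at 4 h and 169, 176 and 191 CPM at 22 h, with overlapping groups. Its log2 fold changes were 0.10 ± 0.05 (limma-voom adjusted p = 0.0706) and 0.11 ± 0.05 (adjusted p = 0.0694). Those of Uqcrq were -0.07 ± 0.08 (adjusted p = 0.488) and 0.02 ± 0.08 (adjusted p = 0.869).

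**Figure D2:**
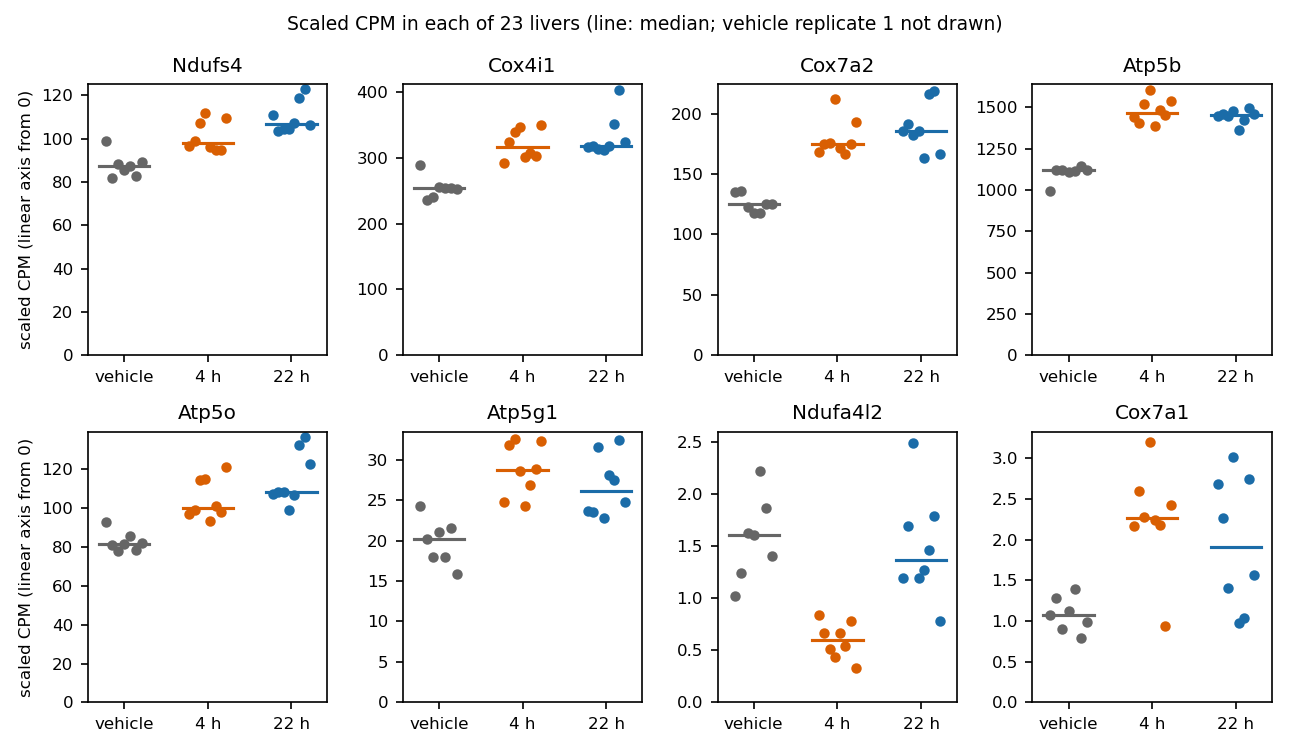
Scaled CPM in each of the 23 livers for 8 genes, with a line at the group median and axes from 0. In Cox4i1, Cox7a2, Atp5b and Atp5o all treated livers lie above the 7 vehicle livers at both times, while Ndufa4l2 is low at 4 h and 7 of 8 livers at 4 h are above vehicle in Cox7a1.

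Of the 12 tested genes of complex IV, 5 were higher at 4 h and 6 at 22 h, and all 12 had fold changes above 0 at both times. Among all genes tested, 22.3% were higher at 4 h and 17.8% at 22 h, and 45.8% and 49.3% had fold changes above 0. Cox7a2 (Entrez 12866, chr9:79755241-79771422), the form of subunit 7a that predominates in liver, had the largest log2 fold change of the called genes at 22 h. It lay at 118, 125 and 136 CPM in vehicle, 166, 175 and 212 CPM at 4 h and 163, 186 and 219 CPM at 22 h. Both treated groups were clear of vehicle and overlapped with each other. The log2 fold changes were 0.51 ± 0.06 (limma-voom adjusted p = 4.73e-07) and 0.58 ± 0.06 (adjusted p = 2.05e-07), 1.43-fold and 1.497-fold.

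Cox4i1 (chr8:120668225-120674209) codes for the largest nuclear subunit, through which ATP and ADP are known to regulate the complex. It lay at 237, 254 and 290.1 CPM in vehicle, 292, 317 and 350.0 CPM at 4 h and 313, 318 and 404 CPM at 22 h. The highest vehicle liver, replicate 2, was just under the lowest treated liver. Log2 fold changes were 0.33 ± 0.06 (limma-voom adjusted p = 5.30e-05) and 0.38 ± 0.06 (adjusted p = 2.37e-05).

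Cox5b, a zinc-binding subunit, lay at 48.3, 53.99 and 61.7 CPM in vehicle, 55.5, 60.3 and 71.4 CPM at 4 h and 55.8, 64.04 and 93.1 CPM at 22 h. The groups overlapped, with all 8 livers of each treated group above the vehicle mean. It was called at both times (0.22 ± 0.09, limma-voom adjusted p = 0.0466, and 0.34 ± 0.09, adjusted p = 0.00373), and so was Cox5a, another nuclear subunit (0.16, adjusted p = 0.0324, and 0.18, adjusted p = 0.0176). The 4 h calls of both were lost under upper quartile scaling (0.14 and 0.07) and in each run of mice alone, and were kept in 8 and 12 of 23 fits that each left out 1 liver (highest adjusted p 0.105 and 0.0901). Cox6a1, the liver form of subunit 6a, and Cox7c, a small membrane subunit, were called at 22 h (0.21 each, adjusted p = 0.0273 and 0.041) and not at 4 h (0.16, adjusted p = 0.0765 and 0.07, adjusted p = 0.509). These 22 h calls were kept in 19 and 15 of the 23 fits (highest adjusted p 0.0593 and 0.102), and Cox6a1 was called at 4 h too without the 3 livers with high COX2 (0.19, adjusted p = 0.0375). Cox6b1, Cox6c, Cox6c2, Cox8a and Cox7a2l, the last of which joins complexes III and IV, were called in no comparison.

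Cox7a1, the form of subunit 7a of heart, muscle and brown fat, was scarce, at 2.75 CPM per kilobase in vehicle against 191 CPM per kilobase for Cox7a2. It lay at 0.791, 1.08 and 1.39 CPM in vehicle, 0.940, 2.26 and 3.21 CPM at 4 h and 0.977, 1.91 and 3.02 CPM at 22 h. At 4 h replicate 7 was alone within the vehicle range, and at 22 h 2 of 8 were. The log2 fold change was 0.98 ± 0.28 at 4 h (limma-voom adjusted p = 0.00576, 7 of 8 livers above the vehicle mean) and 0.71 ± 0.28 at 22 h (adjusted p = 0.0532). Of the brown fat list, which holds Cox7a1 itself, 5 genes were tested, and 2 were higher and 2 lower at 4 h. Of all genes, 22.3% were higher and 21.7% lower at that time. The list summed to 81.0 to 126 CPM in vehicle and 127 to 167 CPM at 4 h, with Elovl3, a fatty acid elongase, rising from a median of 26.2 to 99.6 CPM (1.96, adjusted p = 0.000256), and Cidea and Pparg falling. Ucp1 and Cox8b, 2 others of the list, were at most 0.144 and 0.0848 CPM in the 4 h livers. The part of brown fat RNA in the Cox7a1 values was not tested. In the same livers the skeletal muscle markers summed to 1.58 to 2.77 CPM, against 1.13 to 2.37 CPM in vehicle. With vehicle replicate 1 kept, where Cox7a1 was at 80.2 CPM, the log2 fold change at 4 h was -0.00421 (adjusted p = 0.997), and in replicates 5 to 8 alone it was 0.74 (adjusted p = 0.171).

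Of the 10 genes of complex V, 4 were higher at both times. That is 40.0% at each time, against 22.3% of all genes at 4 h and 17.8% at 22 h. Atp5b (Entrez 11947, chr10:128083307-128090388) codes for the catalytic beta subunit. It lay at 992, 1120.1 and 1145 CPM in vehicle, 1384, 1466 and 1607 CPM at 4 h and 1365, 1452 and 1495 CPM at 22 h. The treated livers formed 1 band well above vehicle, and this gene had the smallest adjusted p of the 37 in both comparisons. Its log2 fold changes were 0.42 ± 0.04 (limma-voom adjusted p = 1.21e-08) and 0.39 ± 0.04 (adjusted p = 1.34e-07), 1.34-fold and 1.31-fold. Atp5a1, the alpha subunit that sits beside it in the same ring, was not called (0.10, adjusted p = 0.0721, and 0.04, adjusted p = 0.545).

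Atp5o (chr16:91925223-91931630) codes for the peripheral stalk protein OSCP that holds the catalytic head still. Livers lay at 77.7, 81.6 and 92.7 CPM in vehicle, 93.3, 99.96 and 121 CPM at 4 h and 99.2, 108 and 136 CPM at 22 h, with no treated liver in the vehicle range. Log2 fold changes were 0.33 ± 0.07 (limma-voom adjusted p = 0.000415) and 0.47 ± 0.07 (adjusted p = 1.79e-05). Atp5pb, subunit b of the same stalk, had smaller values (0.14, adjusted p = 0.0284, and 0.19, adjusted p = 0.00451), and its 4 h call was lost under upper quartile scaling (0.06, adjusted p = 0.411) and kept in 13 of 23 fits that each left out 1 liver (highest adjusted p 0.11).

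The c ring that turns with the protons is made of 1 protein coded by several genes. Atp5g1 (chr11:96072793-96075694) lay at 15.9, 20.2 and 24.3 CPM in vehicle, 24.3, 28.7 and 32.6 CPM at 4 h and 22.8, 26.1 and 32.4 CPM at 22 h. The 4 h livers were all above vehicle, the lowest only just, and at 22 h 3 of 8 overlapped with it. It rose by 0.54 ± 0.10 (limma-voom adjusted p = 7.90e-05) and 0.44 ± 0.10 (adjusted p = 0.00127), the latter lost in replicates 1 to 4 alone (0.28, adjusted p = 0.245). Atp5g3, which codes for the same mature protein, did not pass the test (-0.02, adjusted p = 0.787, and 0.01, adjusted p = 0.872). Atp5c1, Atp5j, Atp5k and Atp5l were also called in no comparison.

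From 4 h to 22 h, 1 gene was higher (Ndufa4l2), 1 was lower (Ndufs1) and 35 were not called, against 15.2% of all genes higher and 16.9% lower. The median log2 fold change was 0.04, against -0.02 over all genes. In complex IV the smallest p was that of Cox7c (0.14 ± 0.08, limma-voom adjusted p = 0.167), in complex V that of Atp5o (0.13 ± 0.07, adjusted p = 0.143) and in complex III that of Uqcrq (0.09 ± 0.07, adjusted p = 0.388). Genes called at 4 h or 22 h alone were therefore not shown to differ between the times, apart from Ndufs1 and Ndufa4l2. Under upper quartile scaling 8 genes were higher at 22 h than at 4 h and 0 lower, and the Ndufs1 call was kept in 10 of 23 fits that each left out 1 liver (highest adjusted p 0.155). Without the 3 livers with high COX2, Ndufs4 was also higher at 22 h (0.13, adjusted p = 0.0481).

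Of the 18 genes higher at either time, 10 were called at both, 3 at 4 h alone and 5 at 22 h alone. Both comparisons share the vehicle livers, and the same counts over all genes are not given here. The 10 of 18 is therefore not read as unusual. Near-identical stretches in other transcripts can take or lend reads, and the counting tool is not given in the sources used here. For 36 genes with a GENCODE vM21 transcript, at least 95% identity over most of its length was found in another gene for 6: Ndufb11, Ndufs6, Cox7c, Atp5k, Atp5l and Atp5o. The values of these 6 are uncertain to that extent. Shorter stretches of at least 100 bases were found for other genes, and 18 of the 36 had none. Among the genes with shorter stretches, Atp5g1 shared them with 19 other genes (longest 411 bases), Atp5pb with 4 (696 bases) and Cox5b with 1 (390 bases). The values of such genes can be uncertain too. The pseudogene row Cox5b-ps, left out by the rule, held a mean of 22.0 CPM over 23 libraries and was called at 22 h (0.27, limma-voom adjusted p = 0.0215) but not at 4 h (0.21, adjusted p = 0.0649).

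Livers differed among themselves. The mean over the 37 genes of log2 CPM, less the mean of the 7 vehicle livers, ran from -0.04 through a median of -0.01 to 0.10 in vehicle, from 0.03 through 0.08 to 0.28 at 4 h, and from 0.07 through 0.17 to 0.41 at 22 h. With TMM scaling, replicates 3, 4 and 8 at 4 h were high, at 0.20, 0.28 and 0.23, and the other 5 lay within the vehicle range. That range reached 0.10 through vehicle replicate 2 alone. The other vehicle livers were at most 0.01, below every liver at 4 h. Values of replicates 3, 4 and 8 at 4 h under other scalings are given below. At 22 h replicates 6 and 7 were highest, at 0.28 and 0.41, and 6 of 8 livers were above the highest vehicle liver. For complex V, 7 of 8 livers at 4 h and 8 of 8 at 22 h were above it. These means carry no test, since they rest on chosen genes, and the complex I mean at 4 h is lowered by Ndufa4l2.

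**Figure D3:**
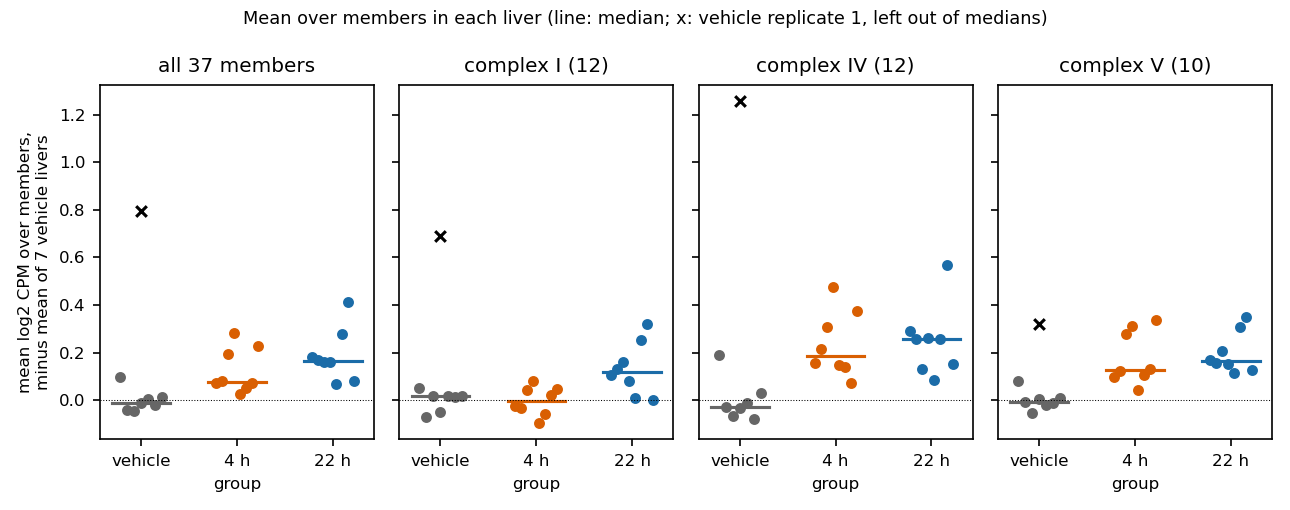
Mean over genes of log2 CPM minus the vehicle mean, for each liver and complex, with a line at the group median and a cross for vehicle replicate 1. For complex V 7 of 8 livers at 4 h and 8 of 8 at 22 h lie above the highest vehicle liver, and complex I at 4 h overlaps vehicle.

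The genes of at least 10 CPM varied little within groups, with a median SD of 0.13 on the log2 scale (33 genes, 0.06 for Atp5b to 0.19 for Ndufb11), against 0.15 for all 5244 genes of that level. Over the 23 livers, after group means were taken out, the median Pearson correlation between 2 of these genes was 0.59 over 528 pairs. All pairs share the same libraries and scaling, so this is a description only. With library totals in place of TMM, the mean over the 37 genes at 4 h ran from 0.04 to 0.16, against 0.03 to 0.28 with TMM. By totals, 0 of 8 livers at 4 h and 3 of 8 at 22 h were above the highest vehicle liver, replicate 2 (0.16). The other vehicle livers were at most 0.03, and every liver at 4 h was above them. With totals, 4 h replicates 3, 4 and 8 were at 0.09, 0.16 and 0.05, and replicate 7 was at 0.10. At 22 h replicate 6 was then at 0.15 and replicate 7 at 0.32. Under upper quartile scaling the 4 h median was -0.01 and the 22 h median 0.17, and 4 h replicates 3, 4 and 8 were again highest.

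In vehicle replicate 1, the library with high fat and muscle markers, 33 of 37 genes were above the highest of the other 7 vehicle livers (89.2%, against 25.7% of all genes tested), with a median ratio to the vehicle mean of 1.54. Cox8b, the muscle and brown fat form of subunit 8, had 4128 counts (90.5 CPM) there, at most 4 counts in any other library, and 0 counts in 15 of the other 23. Cox7a1 was at 80.2 CPM in it, and Atp5b at 2351 CPM. Atp5g1 and Atp5g3 were exceptions at 14.5 and 212 CPM, below all other vehicle livers.

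Some markers of the other liver cells changed with treatment too. The 7 endothelial markers summed to 243, 411 and 459.97 CPM in vehicle, 269.9, 277 and 324 CPM at 4 h and 117, 244 and 301 CPM at 22 h. Of them 3 were lower at 4 h and 7 at 22 h, and 0 were higher. Over all genes, 21.7% were lower and 22.3% higher at 4 h, and 18.8% and 17.8% at 22 h. Of 6 stellate cell markers 3 and 5 were lower, of 6 Kupffer cell markers 1 and 4, and of 5 erythroid markers 4 and 4, with 1 erythroid gene higher at both times. Of the 10 hepatocyte markers 4 were higher and 5 lower at 4 h, and 5 and 4 at 22 h. In bulk liver, fewer cells of a type and less RNA per cell cannot be told apart, and the part of these shifts in the gains of the respiratory genes was not tested.

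Regulators of respiratory genes were also measured. Of 18 tested, 11 were higher, 1 lower and 6 not called at 4 h, with a median log2 fold change of 0.29. At 22 h 9 were higher, 0 lower and 9 not called (0.15). Of all genes, 22.3% were higher and 21.7% lower at 4 h (median -0.05), and 17.8% and 18.8% at 22 h (-0.01). Ppargc1a lay at 21.0, 26.2 and 28.8 CPM in vehicle, 103, 118 and 235 CPM at 4 h and 25.4, 27.7 and 33.3 CPM at 22 h. At 4 h every liver was far above vehicle, and by 22 h the groups overlapped (limma-voom log2 fold changes of 2.35, adjusted p = 1.66e-12, and 0.12, adjusted p = 0.574). Esrra, the gene of ERRalpha, lay at 16.4, 18.6 and 20.7 CPM in vehicle, 26.9, 32.0 and 36.5 CPM at 4 h and 20.3, 22.9 and 28.5 CPM at 22 h, higher at both times (0.75, adjusted p = 5.28e-08, and 0.30, adjusted p = 0.0083). Twnk, the helicase of mitochondrial DNA, was higher at both (0.63 and 0.47), and Nrip1, a corepressor, at 4 h (0.61, adjusted p = 7.37e-07), while Polg2, a subunit of the mitochondrial DNA polymerase, fell by 0.57 (adjusted p = 0.000529). Polrmt, the mitochondrial RNA polymerase, and Nrf1 were higher at 4 h (0.34 and 0.30, adjusted p = 0.00051 and 0.00326) and at 22 h (0.45 each, adjusted p = 3.67e-05 and 0.000106). From 4 h to 22 h, 5 regulators fell, among them Ppargc1a (by 2.24) and Esrra (by 0.45), and Polg2 rose by 0.69. Of all genes, 16.9% were lower and 15.2% higher in that comparison.

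**Figure D4:**
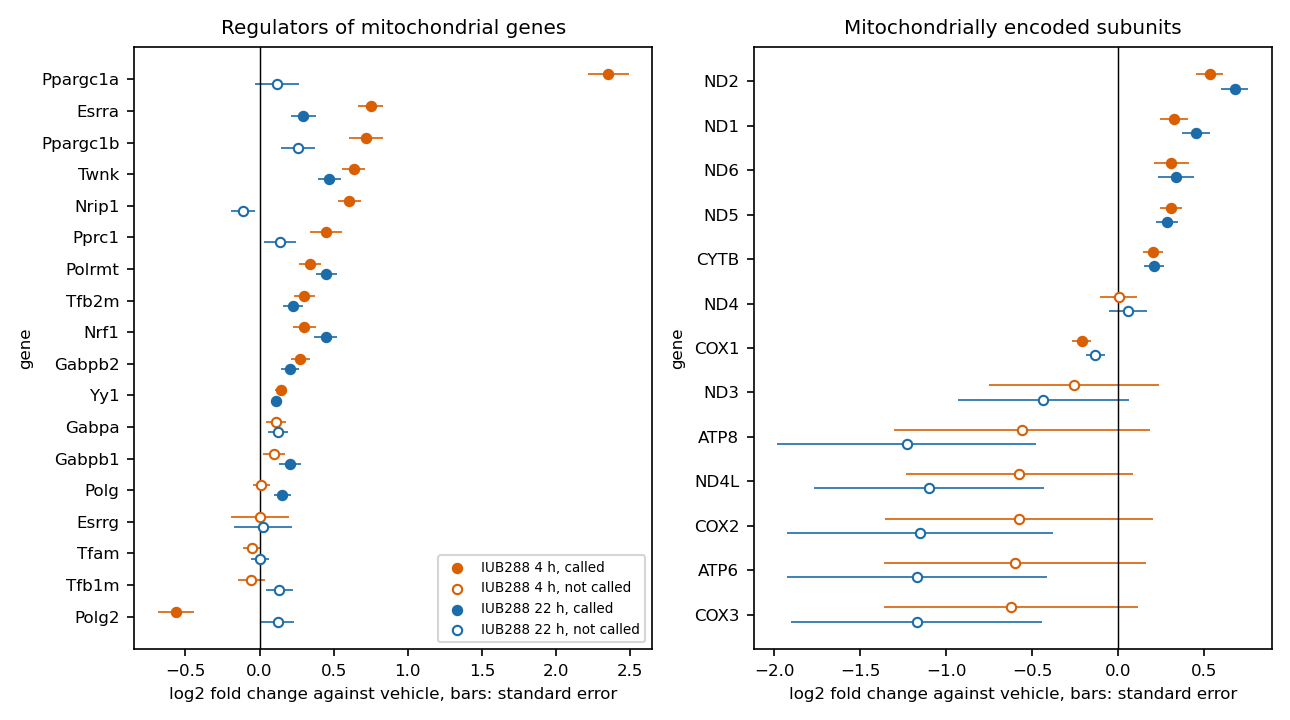
Log2 fold change of the regulators (left) and of the 13 mitochondrially encoded subunits (right) at 4 h (orange) and 22 h (blue) against vehicle, with standard errors. Ppargc1a is at 2.35 at 4 h and near 0 at 22 h, while the called mitochondrial genes differ little between times.

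Mitochondrial DNA codes for the remaining 13 subunits. At 4 h 5 of them, ND1, ND2, ND5, ND6 and CYTB, were higher, COX1 was lower and 7 were not called. At 22 h the same 5 were higher and 8 not called. The shares over all genes were 22.3% higher and 21.7% lower at 4 h, and 17.8% and 18.8% at 22 h. ND2 of complex I lay at 9818, 10356 and 11902 CPM in vehicle, 13550.0, 14680.0 and 17811 CPM at 4 h and 14127, 16415 and 20809 CPM at 22 h. All treated livers were above vehicle (0.53, limma-voom adjusted p = 6.24e-06, and 0.68, adjusted p = 5.42e-07). COX1, the catalytic core of complex IV, was at -0.21 at 4 h (adjusted p = 0.00335) and -0.13 at 22 h (adjusted p = 0.0668), while 5 nuclear genes of that complex were higher at 4 h. COX2, COX3, ATP6, ATP8, ND3 and ND4L were not called and varied widely, and COX2 ran from 123 to 5125 CPM in vehicle, 114 to 3966 CPM at 4 h and 33.4 to 832 CPM at 22 h. Nuclear copies of mitochondrial DNA can share reads with these genes, and ND5 and ND6 overlap on opposite strands with the strand setting unknown.

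Other genes that serve the chain were mixed. Of 13 assembly factors 2 were higher and 2 lower at 4 h, among them Atpaf2, which assembles complex V (0.40, limma-voom adjusted p = 1.46e-06), and Cox18, which inserts COX2 (-0.42, adjusted p = 0.000574). At 22 h 2 were higher and 3 lower. Over all genes, 22.3% were higher and 21.7% lower at 4 h, and 17.8% and 18.8% at 22 h. Of 7 genes for cytochrome c and coenzyme Q, 2 were higher at 4 h: Coq10a, a coenzyme Q chaperone (0.94, adjusted p = 2.60e-10), and Hccs, which attaches heme to cytochrome c (0.31, adjusted p = 0.00125). Cycs, cytochrome c itself, was not called at 4 h (-0.11, adjusted p = 0.642) and lower at 22 h (-0.52, adjusted p = 0.0273). It also was high in the 3 livers with high COX2, at 82.9 to 119 CPM against 32.2 to 75.5 CPM elsewhere.

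Among 8 genes for the exchange of ATP, phosphate and protons, 4 were higher and 3 lower at 4 h. For all genes the shares higher and lower were 22.3% and 21.7% at 4 h, and 17.8% and 18.8% at 22 h. Slc25a3, the phosphate carrier that feeds complex V, lay at 243, 264 and 291 CPM in vehicle, 323, 349.99 and 382 CPM at 4 h and 302, 319.9 and 342 CPM at 22 h. No treated liver reached down to vehicle (0.39, limma-voom adjusted p = 3.01e-07, and 0.26, adjusted p = 0.000138). Ucp2, an inner membrane carrier of the uncoupling protein family, fell by 1.07 (adjusted p = 5.28e-07) and 1.24 (adjusted p = 2.09e-07). Of 20 mitochondrial ribosomal protein genes 6 were higher and 1 lower at 4 h, and 9 and 1 at 22 h. Of 11 import genes 5 were higher and 1 lower at 4 h, and 3 and 0 at 22 h, with Timm17a and Timm10 of the inner membrane at 0.50 and 0.55 at 4 h (adjusted p = 1.74e-05 and 3.62e-05).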

How the data were processed

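Liver RNA of 24 mice had been isolated from frozen tissue with the miRNeasy Mini Kit, and libraries made with the KAPA mRNA HyperPrep kit, per the labels' protocols. The submitters' processing notes name cutadapt, GSNAP and the build GRCm38. Versions, counting tool, annotation and strand setting are not given in the sources used here. The deposited table held whole-number counts per gene, and all other values were computed from it. They were tested with limma-voom (limma 3.58.1, R 4.3.3) in place of a count model, because the quoted layout of the deposited table kept its columns from being read as plain counts in a unit check.

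The filter on low counts (count minimum 10, total minimum 15) kept 11614 genes. Counts were scaled by TMM, trimming 30% of log ratios and 5% of means, and 1 model held the 3 group means of 23 libraries (20 residual degrees of freedom). This model was also run on simulated data, and how often it recovers changes as small as those here is not given. Copies were searched with BLAST 2.17.0+. No 2 libraries of a group were alike within counting noise (chi-square per degree of freedom 19.3 or more in 84 pairs).

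The genes and lists were chosen with earlier results of these data known. Every gene called is named, apart from 1 that is counted but not reported here, and values by group are given for the 8 called genes with the smallest p in a comparison and the smallest p of a complex. Alternatives covered libraries, scaling, filter, test and replicate numbers.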

Additional observations from a re-analysis of the deposited data

Results flagged for a closer look

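A liver far from the others of its group was found in 11 of 72 groups of values examined, where chance gives about 1 in 20 for a single group. The groups share the same livers, so they are not independent. Vehicle replicate 2 accounts for 7 of them. It was the lowest vehicle liver in Atp5b (992.5 CPM) and the highest in Atp5pb (348.7 CPM), Cox4i1 (290.1 CPM), Cox5a (104.6 CPM) and Ndufs4 (98.9 CPM), and in the mean over all genes (0.098) and over complex IV (0.19). Replicate 7 at 22 h was highest in Cox4i1 (403.8 CPM), Cox6a1 (115.3 CPM) and the complex IV mean (0.57). Replicate 7 at 4 h was lowest in Cox7a1 (0.94 CPM).

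The change from vehicle differed between the times, by the test of 22 h against 4 h, for Ndufs1 (log2 difference -0.14) and Ndufa4l2 (1.27). In vehicle replicate 1, which was left out of the main comparisons, Cox8b was at 90.5 CPM and Cox7a1 at 80.2 CPM, above all other libraries.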

How the results depend on the processing

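Counts of genes higher than vehicle were 13 at 4 h and 15 at 22 h. They were 4 and 8 with vehicle replicate 1 kept (median log2 fold changes 0.014 and 0.050), 7 at 4 h under upper quartile scaling (median 0.025), 7 and 5 in replicates 1 to 4 alone, where 0 genes were lower at 4 h, and 7 at 4 h in replicates 5 to 8 alone, where the 22 h median was 0.19. Leaving out 1 liver at a time gave 9 to 16 at 4 h and 12 to 18 at 22 h. The 4 h call of Cox7a1 turned to -0.00421 with vehicle replicate 1 kept, and the 22 h call of Ndufs6 to -0.055 in replicates 1 to 4 alone.

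From 4 h to 22 h the 1 higher gene became 8 under upper quartile scaling (median 0.12), 4 with library totals, 2 with a filter at 1 CPM, 2 without the 3 livers with high COX2 (an alternative chosen after seeing the data), 3 in replicates 5 to 8 alone (median 0.11), and 1 to 2 with 1 liver left out. The 1 lower gene became 0 with vehicle replicate 1 kept, under median-of-ratios and upper quartile scaling, with library totals, with no filter or the 1 CPM filter, with libraries of the 2 groups alone and in either run of replicates, and 0 to 1 with 1 liver left out. The cause of these shifts was not tested.

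Replicate numbers did not pair the livers: of 22 same-numbered pairs 1 correlated above 0.1 in its deviations from group means. With the replicate number as a block, 10 genes were higher at 4 h, 15 at 22 h and 1 from 4 h to 22 h. Under the other scalings, filters and tests run, counts stayed within 1.5 times.

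Changes of about 0.1 on the log2 scale are near the standard errors of most of these genes (median 0.068), and genes under 5 CPM, such as Cox7a1, Ndufa4l2 and Ndufaf8, had wider ones.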
